A study of Mus musculus with 7 samples.

Results

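Beta cell disallowed genes are transcripts that most mammalian tissues make and that mature pancreatic beta cells keep low. The set described here holds 30 named genes, and all 30 were found by symbol among the 51912 genes of the count table. They were given as a list of names, not by a cutoff on their values. The data are messenger RNA counts from islets of db/db mice, which lack a working leptin receptor and become obese and diabetic. All 7 animals had this genotype and received an adeno-associated virus (AAV), which coded for green fluorescent protein in the 4 controls (AAV-GFP) and for adipsin, the complement protease factor D, in the other 3 (AAV-Adipsin). Islets were taken after 4 weeks and cultured for 12 hours before RNA was prepared, and each library came from 1 mouse. The promoter that drives the vector and the age and sex of the mice could not be taken from the labels, and no lean or untreated islets are used here, so no level can be set beside that of healthy islets.

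A beta cell senses glucose by burning it in its mitochondria, and secretion follows the rise in ATP. Lactate dehydrogenase and the lactate carrier of the plasma membrane would divert pyruvate or let it in from the blood, and hexokinases of high affinity would break down glucose that is too scarce to call for insulin. Low expression of such genes is held in place by DNA methylation, repressive histone marks and microRNAs, the miR-29 family among them. Other members of the set act in growth factor signalling, gene regulation or the cytoskeleton. Loss of this repression has been described in diabetic islets. Whole islets also hold alpha, delta, endothelial, stromal and immune cells that express many of these genes, so more or fewer cells of a type and more or less RNA per cell cannot be told apart in these libraries.

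The sequences shown first are those of the classical pair, Ldha and Slc16a1, because their repression is the best described of the set. Each is the run of 250 bases before a RefSeq start site (build GRCm38.p6), 5′ to 3′ on the plus strand, with the E-box CACGTG in capitals. CACGTG reads the same on both strands and is bound by basic helix-loop-helix factors.
Ldha promoter, chr7:46845554-46845803: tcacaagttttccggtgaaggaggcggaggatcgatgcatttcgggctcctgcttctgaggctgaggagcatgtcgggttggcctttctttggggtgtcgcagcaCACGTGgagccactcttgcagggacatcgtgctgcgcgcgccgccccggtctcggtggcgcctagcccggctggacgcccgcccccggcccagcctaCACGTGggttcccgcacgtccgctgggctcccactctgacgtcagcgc
Slc16a1 promoter, chr3:104638414-104638663: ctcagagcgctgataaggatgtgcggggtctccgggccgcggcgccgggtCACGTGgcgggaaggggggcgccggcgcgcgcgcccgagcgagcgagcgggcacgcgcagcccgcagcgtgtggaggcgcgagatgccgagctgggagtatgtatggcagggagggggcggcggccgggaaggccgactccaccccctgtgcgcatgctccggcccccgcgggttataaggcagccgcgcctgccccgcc
The E-boxes of Ldha begin 145 and 48 bases before the start site used, and that of Slc16a1 begins 200 bases before its own. Around another RefSeq start site of Ldha, the 300 bases at chr7:46846832-46847131 held no CACGTG. RefSeq windows of 300 bases around the start were matched for 24 of the 30 members, with 33 windows in all. CACGTG was found in 3 members, Ldha, Slc16a1 and Yap1, or 9.09% of the member windows against 7.15% of the 32851 windows in the table. Its shorter core ACGTG, searched on both strands and contained in CACGTG, was found in 9 members, or 30.3% of the member windows against 19.6% of all. The member windows held a median of 20 CpG dinucleotides, the sites that DNA methylation acts on, against 7 in all windows. The windows of the table were not limited to genes tested in these islets, as all 30 members were. These differences therefore cannot be read as a trait of disallowed genes among expressed genes. These matches describe letters and do not show that a factor binds, and no methylation was measured in these libraries.

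The miR-29 microRNAs are shown because miR-29 is known to repress Slc16a1 in beta cells. The mature RefSeq sequences share 1 seed, bases 2 to 8, given in capitals.
mmu-miR-29a-3p: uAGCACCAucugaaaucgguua
mmu-miR-29b-3p: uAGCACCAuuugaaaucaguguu
mmu-miR-29c-3p: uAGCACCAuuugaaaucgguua
Slc16a1 3′ UTR, 22 bases around the seed match at chr3:104655796-104655802 (GRCm38, plus strand), match in capitals: tctaccagTGGTGCTcagtgca
The match lies at position 74 of the 2740 bases of that 3′ UTR in GENCODE release M21. A match to this seed was found in the 3′ UTR of 7 of the 30 members, against 13.6% of 13973 protein-coding genes tested. They were Slc16a1, Igfbp4, Pdgfra, Itih5, Nfib, Rest and Zfp36l1, with 2 sites each in Igfbp4 and Pdgfra. The members' 3′ UTRs were somewhat longer, with a median of 1153 bases against 965. MicroRNA levels were not measured.

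All 7 libraries carried the transcripts of islet cells. Depth ran from 29601707 to 43997400 counts, so that 3 counts, taken as the floor, correspond to 0.0682 to 0.101 CPM. CPM is the usual unit of reads mapped to a gene relative to the library's total, here after TMM scaling. The 12 beta cell markers, which include both insulin genes, summed to 164390 to 204680 CPM. Acinar markers, from the enzyme-secreting cells around the islets, ran from 2702 to 17899 CPM. The T cell gene Cd3e was at 0 in every library, as was no other of the 8 lymphocyte markers. Of these 8, 2 had enough counts to be tested, among them Ptprc at 2.16 to 6.44 CPM. Cfd, the transcript that codes for adipsin, stood at 55.5 ± 41.3 CPM (SD, n = 3) with AAV-Adipsin and 0.00556 ± 0.0111 CPM (SD, n = 4) with AAV-GFP, higher in 3 of 3 AAV-Adipsin libraries. In each group, replicate 1 is described by the name of its treatment and the others by a db number, and values within these description styles are given where they bear on a result.

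The members differed widely in level, and low expression was not shared by all. Per length, as TPM (the share of transcripts after division by gene length) averaged over the 7 libraries, 21 of 30 lay below the median of all 16504 genes tested, which was 9.91 TPM, and the median member stood at 3.52 TPM. Under 1 TPM there were 5 members, and over 10 TPM there were 9, where the shares over all genes tested were 15.5% and 49.8%. The lowest 5 were Itih5, a hyaluronan-binding matrix protein, at 0.317 TPM, the PDGF receptor Pdgfra at 0.347, the myosin kinase Mylk at 0.482, the transcription factor Maf at 0.638 and the hexokinase Hk2 at 0.722. The 9 members above the median were Pam, Cox5a, C1qbp, Ldha, Cat, Ly6a, Zyx, Zfp36l1 and Tgm2. Pam stood apart at 251 TPM, higher than 98.3% of genes tested. It codes for the enzyme that amidates peptide hormones, which endocrine cells make in quantity, and so goes against the name of the set in this tissue. Next came the mitochondrial proteins Cox5a, a subunit of cytochrome c oxidase, at 45.3 TPM, and C1qbp at 39.1, then Ldha at 26.5 and catalase (Cat) at 24.4 TPM. In the order of levels Pam and Cox5a were the one pair of neighbours whose ranges over the 7 libraries did not overlap. Within libraries, Cox5a was above C1qbp and Zyx above Zfp36l1 in all 7 as well. With the longest transcript as length, however, C1qbp (43.0 TPM) stood above Cox5a (40.7 TPM). No other pair of neighbours kept its order in all 7 libraries, so the order of those is not resolved from 1 member to the next.

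**Figure D1:**
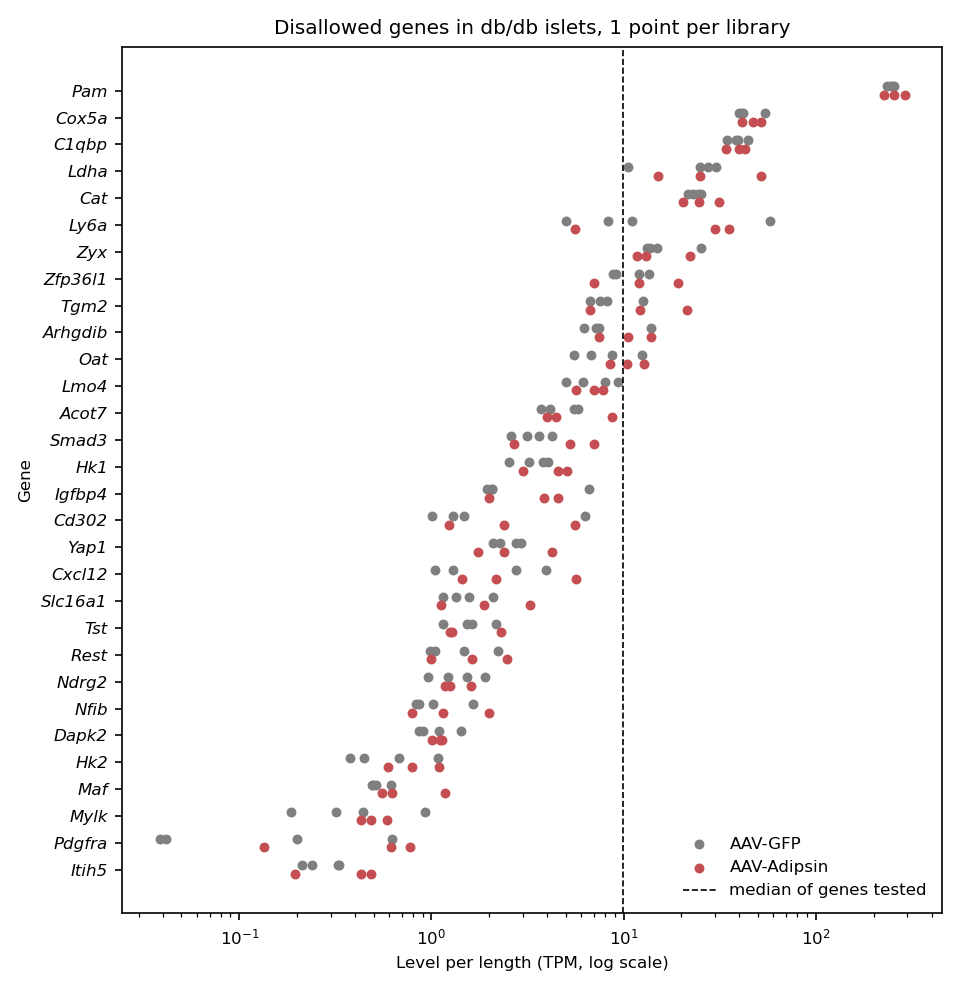
Level per length of each of the 30 disallowed genes in TPM on a log axis, 1 point per library, grey for the 4 AAV-GFP and red for the 3 AAV-Adipsin libraries, with the members ordered by their mean. The dashed line is the median of all genes tested (9.91 TPM); Pam lies far above every other member, and red and grey points overlap in each row.

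Members were also set beside their relatives, per length. Ldha and Ldhb, the muscle and heart type subunits of lactate dehydrogenase, were both expressed. The ratio of Ldha to Ldhb in TPM ran from 0.818 in AAV-GFP 2 to 5.22 in AAV-Adipsin 2, so Ldha was the more abundant subunit in 6 of the 7 libraries. With the longest transcript as length it was the more abundant in all 7, at ratios from 1.24 to 7.90, and with the coding length at 1.59 to 10.2. The transcription factor Mafa, needed for insulin gene expression, was 10.5 to 32.5 times as high as Maf, and 3.69 to 11.4 times with the coding length. Rest, which silences neuronal genes in cells that are neither neurons nor endocrine, stood at 1.54 TPM. Of 14 REST targets listed, 13 had enough counts to be tested. Among them Scg2, Chga and Chgb, which code for granins of the secretory granule, stood at 10960, 7686 and 7644 TPM. Chga and Chgb were chosen after their values were seen, and the levels of the other targets are not reported here.

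No member passed the test of AAV-Adipsin against AAV-GFP. With edgeR's quasi-likelihood test and Benjamini-Hochberg adjustment over 16504 genes, 0 of 30 members had an adjusted p under 0.05, and Cfd alone passed, which is 0.00606% of genes tested. At an unadjusted p under 0.05 there were 0 members, against 1.16% of genes tested. The groups overlapped for all 30 members, where AAV-Adipsin was higher without overlap for 1.16% and lower without overlap for 1.58% of genes tested. The fitted values leaned to one side all the same: 24 of 30 log2 fold changes were above 0, against 46.2% of genes tested (56.5% with library totals as the one scaling, where 24 members again were above 0), and their median was 0.18 against -0.011. DESeq2 and limma-voom also called 0 members, with 0 at an unadjusted p under 0.05 by each. Without AAV-Adipsin 2, 11 of the 30 were above 0, against 49.1% of genes tested, and the median was -0.12. Without AAV-GFP 4, 28 were above 0, against 45.6%, and the median was 0.49. Leaving out any 1 of the other libraries left 19 to 25 above 0, with medians from 0.078 to 0.40.

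**Figure D2:**
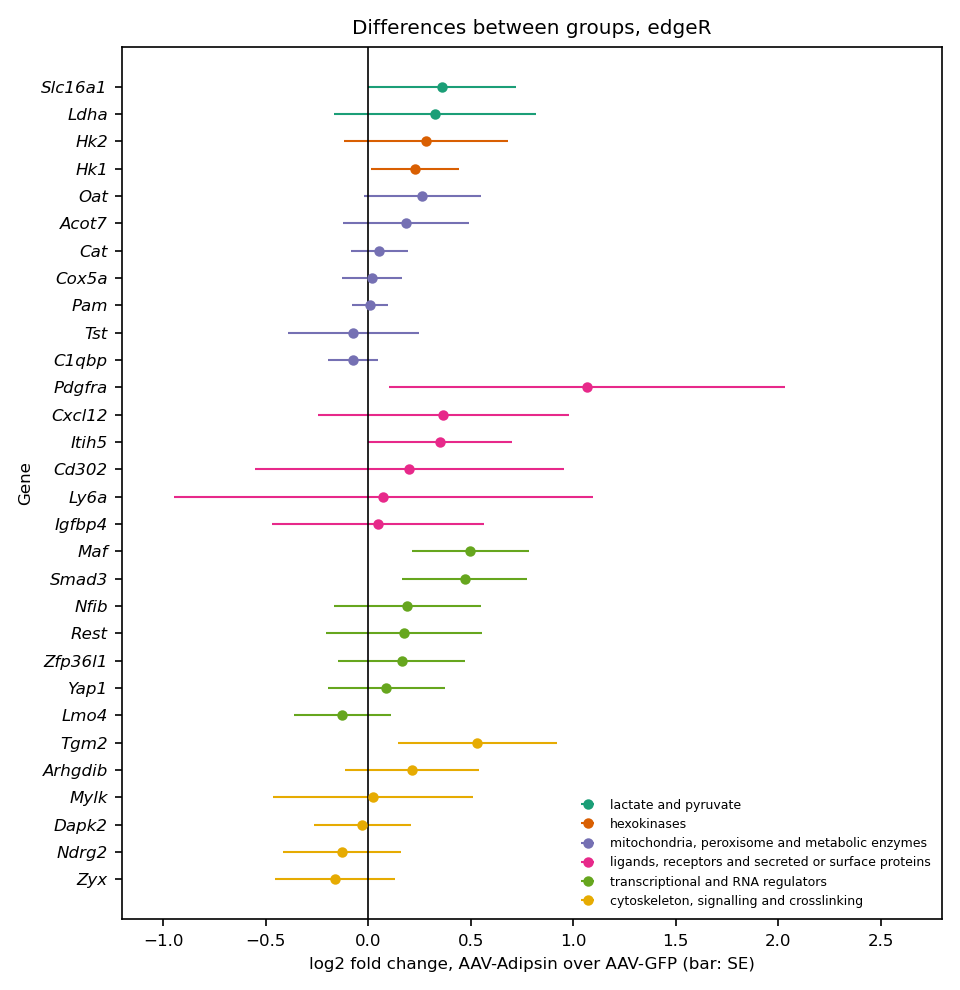
Log2 fold change of AAV-Adipsin over AAV-GFP for each of the 30 members, coloured by role, with bars of 1 standard error from edgeR. Of the 30 points 24 lie to the right of 0, no member passed the test, and Pdgfra has the highest value at 1.07 with a standard error of 0.97.

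The lactate genes overlapped between the groups. Ldha turns pyruvate into lactate, and lies on chromosome 7 from 46841475 to 46855627 (GRCm38, plus strand). Its levels in AAV-GFP 1 to 4 were 39.0, 13.6, 36.6 and 35.2 CPM, and in AAV-Adipsin 1 to 3 they were 20.1, 66.3 and 30.8 CPM. The lowest and the highest library thus belonged to different groups, AAV-GFP 2 and AAV-Adipsin 2, and the other 5 lay between 20.1 and 39.0 CPM. Means were 39.1 ± 24.2 CPM (SD, n = 3) with AAV-Adipsin and 31.1 ± 11.8 CPM (SD, n = 4) with AAV-GFP. The log2 fold change of 0.33 (SE 0.49) was smaller than its error (edgeR adjusted p = 1.00). It turned to -0.28 without AAV-Adipsin 2. Within description styles the log2 CPM difference was -0.95 between the libraries named by treatment and 0.80 among those with db numbers. Reads of the pseudogenes Ldha-ps and Ldha-ps2, 1 and 11 counts in all libraries together, were too few to bear on these levels.

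Slc16a1 codes for MCT1, which carries lactate and pyruvate across the plasma membrane, and spans 104638668 to 104658462 of chromosome 3 (plus strand). It stood at 2.71, 1.98, 2.39 and 3.93 CPM in AAV-GFP 1 to 4 and at 2.00, 5.55 and 3.08 CPM in AAV-Adipsin 1 to 3. AAV-Adipsin 2 was again the highest library, and AAV-GFP 4 came next. The log2 fold change was 0.36 (SE 0.36, edgeR adjusted p = 1.00), and without AAV-Adipsin 2 it was -0.11. Of 13 further genes of lactate and pyruvate handling tested, 0 passed in either direction, 5 were above 0 and the median was -0.072. Among them Ldhb was at -0.14 (SE 0.19), the related carriers Slc16a3, Slc16a7 and Slc16a8 at -0.10, -0.051 and 0.061, and the mitochondrial pyruvate carrier genes Mpc1 and Mpc2 at -0.17 and -0.13.

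Hk1 and Hk2 code for hexokinases that work at low glucose. Hk1 (chromosome 10, 62268855 to 62379908, minus strand) stood at 12.7, 8.41, 11.1 and 14.6 CPM in AAV-GFP 1 to 4 and at 10.2, 16.6 and 14.4 CPM in AAV-Adipsin 1 to 3. Hk2 (chromosome 6, 82725025 to 82774454, minus strand) stood at 1.58, 1.04, 0.909 and 2.73 CPM and at 1.43, 2.51 and 1.75 CPM in the same order. For both genes AAV-GFP 4 and AAV-Adipsin 2 were the highest libraries, and the groups overlapped. The log2 fold changes were 0.23 (SE 0.22) for Hk1 and 0.28 (SE 0.40) for Hk2. Both stayed above 0 when any 1 library was left out, at 0.079 or more for Hk1 and 0.038 or more for Hk2. Of 12 further genes of hexose entry and phosphorylation, 0 passed and 5 were above 0, with a median of -0.026. Hk3 and Hkdc1, hexokinases that are not members, were at 0.62 (SE 0.37) and 0.28 (SE 0.51), and the glucose transporter Slc2a2 was at -0.20 (SE 0.33). Slc2a3, a high-affinity glucose transporter, was the 1 gene of that list whose groups did not overlap, higher with AAV-Adipsin by 0.34 (SE 0.23) on the log2 scale. Of all genes tested, 1.16% were higher with AAV-Adipsin without overlap.

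**Figure D3:**
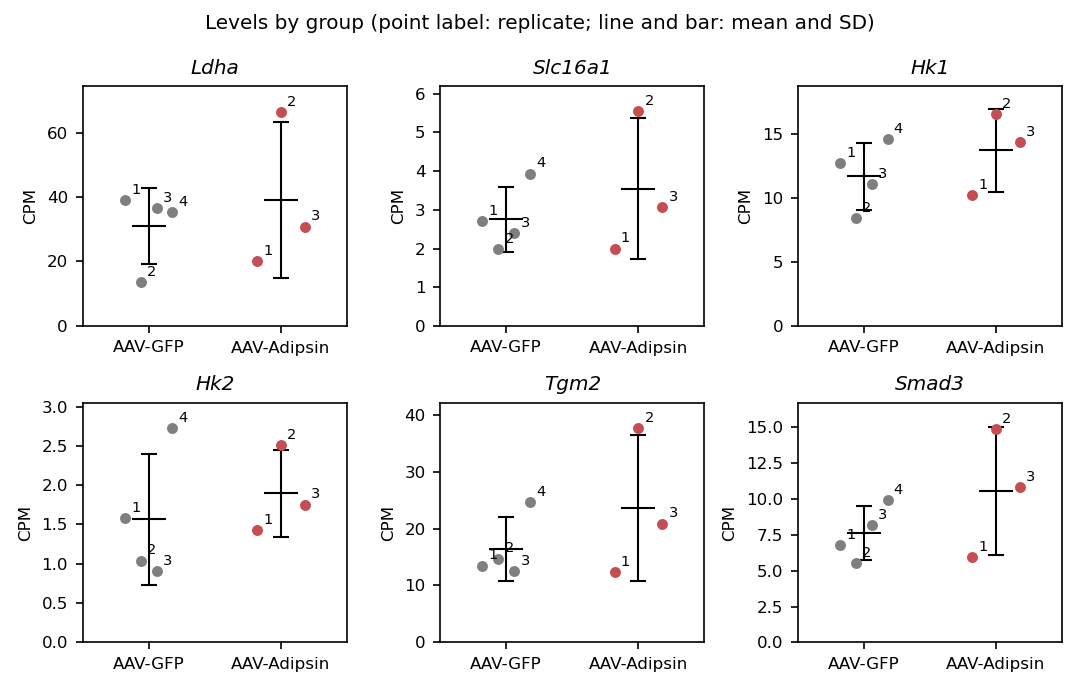
CPM of Ldha, Slc16a1, Hk1, Hk2, Tgm2 and Smad3 in each library, with the replicate number beside the point and a line and bar for mean and SD of the 4 AAV-GFP (grey) and 3 AAV-Adipsin (red) libraries. Replicate 2 is the highest AAV-Adipsin library in all 6 panels, and in Ldha it reaches 66.3 CPM.

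The 7 mitochondrial, peroxisomal and metabolic members had log2 fold changes from -0.07 to 0.26, with a median of 0.019. Pam was the steadiest member, its highest library 1.18 times its lowest. It stood at 1155, 1141, 1218 and 1181 CPM in AAV-GFP 1 to 4 and at 1085, 1171 and 1285 CPM in AAV-Adipsin 1 to 3, a log2 fold change of 0.01 (SE 0.09). Cox5a ran from 33.5 to 48.3 CPM, C1qbp from 38.1 to 53.3 CPM and Cat from 21.5 to 31.4 CPM. These 3 and Pam were the 4 members whose highest library was under 1.5 times the lowest, and their log2 fold changes were 0.02 (SE 0.15), -0.07 (SE 0.12) and 0.05 (SE 0.14). The less abundant enzymes spread further between libraries. Acot7, which splits long-chain acyl-CoA, ran from 3.05 to 7.07 CPM, Oat, an aminotransferase of ornithine, from 5.07 to 12.5 CPM, and Tst, a sulfurtransferase, from 1.42 to 2.90 CPM. Their log2 fold changes were 0.19 (SE 0.31), 0.26 (SE 0.29) and -0.07 (SE 0.32). Of 7 other acyl-CoA thioesterases, 0 passed, 4 were above 0 and the median was 0.031, with Acot4 at 0.17 (SE 0.16) and Acot11 at 0.088 (SE 0.11). Of 11 other genes of hydrogen peroxide removal, the work of catalase, 0 passed and 3 were above 0, with a median of -0.023, and Gpx1 was at -0.096 (SE 0.32), Gpx4 at -0.12 (SE 0.12) and Prdx4 at -0.11 (SE 0.081).

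Ligands, receptors and surface proteins included 4 of the 5 members whose highest library was over 5 times the lowest, namely Pdgfra, Ly6a, Cd302 and Cxcl12, with Mylk as the other one. The log2 fold changes of all 6 members of the role were above 0 (median 0.27), and none passed. Pdgfra, the PDGF receptor of fibroblasts, stood at 0.779, 0.162, 0.156 and 2.66 CPM in AAV-GFP 1 to 4 and at 0.545, 2.38 and 2.88 CPM in AAV-Adipsin 1 to 3. The highest library was 18.5 times the lowest, which rests on 6 counts in AAV-GFP 3. The libraries of each group thus fell into high and low ones, and the log2 fold change of 1.07 (SE 0.97) did not exceed that spread. Ly6a, a surface protein of endothelial and haematopoietic cells, stood at 3.89, 2.34, 5.40 and 29.6 CPM and at 2.70, 13.8 and 15.8 CPM, which gave 0.07 (SE 1.02). Igfbp4, which binds insulin-like growth factors, stood at 3.58, 3.54, 3.46 and 12.3 CPM and at 3.53, 7.77 and 6.36 CPM, which gave 0.05 (SE 0.52). In all 3 of these genes AAV-GFP 4, AAV-Adipsin 2 and AAV-Adipsin 3 were the 3 highest libraries. Cd302, a C-type lectin receptor, ran from 0.534 to 3.59 CPM at 0.20 (SE 0.75), and Itih5 from 0.622 to 1.43 CPM at 0.35 (SE 0.35).

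The chemokine gene Cxcl12 stood at 3.34, 4.12, 13.0 and 9.56 CPM in AAV-GFP 1 to 4 and at 4.75, 17.7 and 6.63 CPM in AAV-Adipsin 1 to 3, which gave 0.37 (SE 0.61). Of 7 partners of PDGF and CXCL12 signalling, 0 passed and 5 were above 0, with a median of 0.15. Ackr3, a scavenging receptor of CXCL12, was higher with AAV-Adipsin without overlap, as were 1.16% of genes tested. Its level was 7.68 ± 0.307 CPM (SD, n = 3) with AAV-Adipsin against 6.20 ± 0.983 CPM (SD, n = 4) with AAV-GFP. The highest AAV-GFP library was at 7.47 CPM and the lowest AAV-Adipsin library at 7.49 CPM. The log2 fold change of Ackr3, 0.31 (SE 0.16), did not pass (edgeR adjusted p = 1.00). Cxcr4, the signalling receptor of CXCL12, was at -0.065 (SE 0.098), Pdgfa at -0.12 (SE 0.11) and Pdgfrb at 0.23 (SE 0.25). Of the IGF axis 7 of 9 genes were tested, 0 passed and 5 were above 0, with a median of 0.030, Igf2 at 0.019 (SE 0.27), Igf1r at -0.18 (SE 0.20) and Igfbp5 at 0.28 (SE 0.16).

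Among the regulators, Maf had the smallest p of all members and did not pass. This basic leucine zipper factor, on chromosome 8 from 115682942 to 115707794, stood at 1.98, 1.59, 1.64 and 1.79 CPM in AAV-GFP 1 to 4 and at 1.84, 3.71 and 1.90 CPM in AAV-Adipsin 1 to 3. AAV-Adipsin 2 lay far above the other 6 libraries, which ran from 1.59 to 1.98 CPM. Its fold change of 0.50 (SE 0.28) on the log2 scale had the unadjusted p 0.115 and the adjusted p 1.00 in edgeR, and without AAV-Adipsin 2 it was 0.10. Its relative Mafa was at -0.29 (SE 0.17), and of 8 genes of the MAF and NFI families 0 passed and 3 were above 0, with a median of -0.066. Nfib itself ran from 4.75 to 11.5 CPM, at 0.19 (SE 0.36).

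Smad3, which carries the TGF-beta signal to the nucleus, stood at 6.81, 5.55, 8.16 and 9.94 CPM in AAV-GFP 1 to 4 and at 5.96, 14.9 and 10.8 CPM in AAV-Adipsin 1 to 3. AAV-Adipsin 2 and 3 were above every AAV-GFP library and AAV-Adipsin 1 was among the lowest. The log2 fold change was 0.47 (SE 0.30), with 0.158 as unadjusted and 1.00 as edgeR adjusted p, and without AAV-Adipsin 2 it was 0.15. Of 11 other genes of that pathway, 0 passed and 9 were above 0, with a median of 0.053. Skil, a SMAD corepressor, was higher with AAV-Adipsin without overlap at 0.11 (SE 0.074), as were 1.16% of genes tested. The receptor gene Tgfbr1 was at 0.11 (SE 0.090).

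Yap1, the coactivator that the Hippo kinases restrain, ran from 6.48 to 15.1 CPM at 0.09 (SE 0.28). Of 16 genes of the Hippo pathway and YAP targets, 0 passed and 13 were above 0, with a median of 0.076, among them Ccn1 at 0.45 (SE 0.36), Ccn2 at 0.082 (SE 0.59), Wwtr1 at 0.20 (SE 0.19), Ankrd1 at 0.64 (SE 0.44) and Lats2 at 0.24 (SE 0.16). Rest ran from 2.76 to 6.88 CPM at 0.17 (SE 0.38), with AAV-GFP 4 and AAV-Adipsin 2 at the top. Its 9 corepressors lay near 0, with a median of 0.011, 6 above 0 and 0 past the threshold, with Rcor1 at 0.010 (SE 0.071), Kdm1a at -0.054 and Hdac2 at -0.050. Of 13 REST target genes tested, 10 were below 0 and 0 passed, with a median of -0.065. Snap25, a protein of exocytosis, was lower with AAV-Adipsin without overlap at -0.096 (SE 0.076), as were 1.58% of genes tested. Scg2 was at -0.14 (SE 0.13). Lmo4, a LIM domain cofactor, ran from 6.90 to 13.9 CPM at -0.13 (SE 0.24), and Zfp36l1, which destabilises messenger RNA, from 8.48 to 22.1 CPM at 0.16 (SE 0.31).

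The last role took in the cytoskeleton, signalling and crosslinking, with 3 of 6 members above 0 and a median of -0.0024. Tgm2, the tissue transglutaminase, stood at 13.5, 14.7, 12.5 and 24.7 CPM in AAV-GFP 1 to 4 and at 12.3, 37.7 and 20.9 CPM in AAV-Adipsin 1 to 3. AAV-Adipsin 1 was the lowest library and AAV-Adipsin 2 the highest, and the log2 fold change was 0.53 (SE 0.39, edgeR adjusted p = 1.00). Without AAV-Adipsin 2 it was 0.033. Tgm2 shares exonic bases with Rprd1b on the other strand, which had 21833 counts in all libraries, so part of these reads may belong to it if strand was not used. Zyx, a focal adhesion protein that overlaps Epha1 in the same way, ran from 25.5 to 55.0 CPM, with AAV-GFP 3 highest, at -0.16 (SE 0.29). Mylk ran from 0.812 to 4.42 CPM at 0.02 (SE 0.49), and Arhgdib, a regulator of small GTPases in blood cells, from 4.16 to 10.04 CPM at 0.21 (SE 0.33). Dapk2, a death-associated kinase, ran from 1.27 to 1.96 CPM at -0.03 (SE 0.24), and Ndrg2, a stress-response gene, from 1.27 to 2.73 CPM at -0.13 (SE 0.29).

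Most members were highest in the same pair of libraries, 1 from each group. AAV-Adipsin 2 held the highest CPM of 13 members, AAV-GFP 4 of 12, AAV-Adipsin 3 of 3 and AAV-GFP 1 and 3 of 1 each. These first 2 libraries held the highest value of 25 of 30 members, against 37.9% of genes tested, and they were the top 2 libraries for 17 members, against 11.9% of genes tested. Neither was the lowest library for any member, and nor was AAV-Adipsin 3. Of genes tested, 24.8% were lowest in AAV-GFP 4, 14.9% in AAV-Adipsin 2 and 9.23% in AAV-Adipsin 3. AAV-GFP 2 was lowest for 10 members, against 12.9% of genes tested. AAV-GFP 1 and AAV-Adipsin 1 were lowest for 8 each, against 14.9% and 14.8%. The 12 members highest in AAV-GFP 4 were Hk2, Oat, Tst, Cox5a, C1qbp, Igfbp4, Ly6a, Cd302, Lmo4, Mylk, Arhgdib and Ndrg2. The 13 highest in AAV-Adipsin 2 were Ldha, Slc16a1, Hk1, Acot7, Cat, Cxcl12, Rest, Yap1, Smad3, Maf, Nfib, Zfp36l1 and Tgm2. The mean log2 CPM over the members was 2.93 ± 0.49 (SD, n = 3) with AAV-Adipsin and 2.71 ± 0.44 (SD, n = 4) with AAV-GFP.

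Markers of several other cell types, though not of all, were high in 1 or both of these libraries too. All 14 mesenchymal and stellate cell markers were highest in AAV-GFP 4, and 13 were lowest in AAV-GFP 2. Their summed level was 337, 253, 319 and 807 CPM in AAV-GFP 1 to 4 and 393, 502 and 473 CPM in AAV-Adipsin 1 to 3. Of 12 macrophage markers, 11 were highest in AAV-Adipsin 2, and they summed to 333 CPM there, against 139 to 203 CPM in AAV-GFP and 154 and 170 CPM in AAV-Adipsin 1 and 3. Endothelial markers summed to 892 CPM in AAV-GFP 4 and 802 CPM in AAV-Adipsin 2, and to 537 to 692 CPM in the other 5 libraries. Duct markers summed to 2051 and 2138 CPM in this pair and to 1510 to 1737 CPM in the others. The duct marker Spp1 was at 781 and 877 CPM in the pair and at 294 to 641 CPM in the others. Krt7, another duct marker, was not raised, at 861 and 830 CPM against 788 to 944 CPM. Of the 8 duct markers, 2 were highest in AAV-GFP 4 and 3 in AAV-Adipsin 2. Delta cell markers summed to 963 CPM in AAV-GFP 4, against 488 to 639 CPM elsewhere. Schwann and neural markers were also highest in AAV-GFP 4, at 21.1 CPM, with 14.1 CPM in AAV-Adipsin 2. Alpha cell markers were not raised in this pair. They summed to 7909 CPM in AAV-GFP 4 and 9285 CPM in AAV-Adipsin 2, against 7012 to 9943 CPM in the others. Beta cell markers summed to 203500 CPM in AAV-GFP 4, 167250 CPM in AAV-Adipsin 2 and 164390 CPM, the lowest sum, in AAV-Adipsin 3. Most of the sum was Ins2, at 136087 CPM in AAV-GFP 4. Of the 12 beta cell markers, 4 were highest and 2 were lowest in AAV-GFP 4, and 6 were lowest in AAV-Adipsin 2. Acinar markers stood at 12900 CPM in AAV-Adipsin 2 and at 2702 CPM, their lowest, in AAV-GFP 4. Of the mesenchymal, endothelial, macrophage, duct and acinar markers, the acinar gene Amy2a5 alone was at 0 in every library. The other 11 acinar markers had enough counts to be tested. How reads were counted is not given, so this 0 cannot be read as absence of the transcript. In the comparison of the groups no marker passed: 12 of 12 macrophage markers tested were above 0 (median log2 fold change 0.60), 12 of 14 mesenchymal (0.21), 10 of 12 endothelial (0.18), 1 of 12 beta cell (-0.061) and 0 of 11 acinar (-0.35). So were 4 of 6 alpha cell (0.10), 3 of 5 Schwann and neural (0.24) and 2 of 2 lymphocyte markers tested (0.36). For duct markers it was 2 of 8 (-0.042) and for delta cell markers 1 of 4 (-0.073). Those of smallest p among them were Fcgr1, a macrophage receptor for antibodies, at 1.57 (SE 0.45), and Nkx2-2, a beta cell transcription factor, at -0.27 (SE 0.10). The part of such cells in the members' values was not tested.

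**Figure D4:**
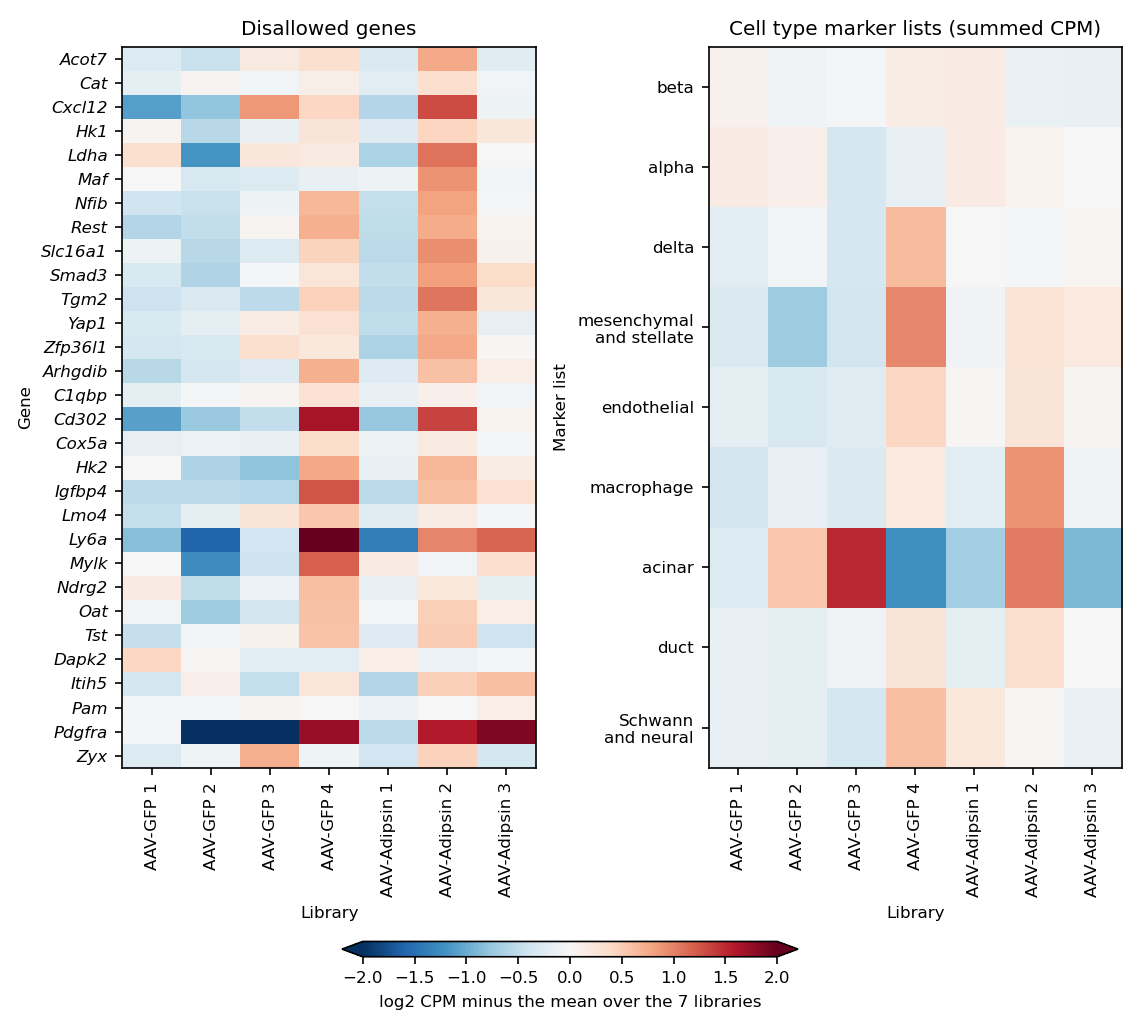
Log2 CPM of each disallowed gene (left) and of the summed CPM of the marker lists (right), minus the mean over the 7 libraries. Columns are libraries, and the lymphocyte list is left out. Red is higher and blue is lower, with colours saturated at 2 log2 units. The columns of AAV-GFP 4 and AAV-Adipsin 2 are red for most members, and mesenchymal markers are highest in the first and macrophage markers in the second.

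The members' mean levels also differed between the description styles. In the pair of libraries described by a treatment name, which are replicate 1 of each group, 27 of 30 members were lower than in the libraries with db numbers, against 49.5% of genes tested. Between the libraries of that pair, 20 of 30 members were lower with AAV-Adipsin, while among the db-numbered libraries 26 were higher. The differences for Slc16a1 were -0.43 and 0.63 in log2 CPM, for Smad3 -0.19 and 0.72, for Tgm2 -0.13 and 0.76, and for Pdgfra -0.48 and 2.42. Both libraries with the most member maxima, AAV-GFP 4 and AAV-Adipsin 2, have db numbers. Their mean log2 CPM over the members was 3.34 and 3.42. AAV-GFP 2, also with a db number, had the lowest mean at 2.32. The libraries with a treatment name stood at 2.54 (AAV-GFP 1) and 2.44 (AAV-Adipsin 1). The difference between styles was not tested. Regulators of the repressive marks, DNA methylation and Polycomb, showed 0 of 12 genes past the threshold and 7 above 0, with a median of 0.020. Uhrf1, which guides DNA methylation to newly copied DNA, was at 0.70 (SE 0.34), Dnmt1 at 0.15 (SE 0.12), Dnmt3a, which is needed for repression of disallowed genes in beta cells, at 0.029 (SE 0.13), and Ezh2 at -0.083 (SE 0.19).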

How the data were processed

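Messenger RNA of islets from 7 mice was sequenced after a stranded library kit, per the labels' protocols, and aligned with STAR to mm10 (GRCm38), per the submitters' processing notes. The authors deposited whole-number, unnormalised read counts for each gene. How reads were counted, with which STAR version, annotation and strand setting, is not given in the sources used here. Reads of overlapping genes on opposite strands cannot therefore be told apart. No sample column was left unused (0).

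Symbols and exon lengths came from GENCODE mouse release M21 (51719 of 51912 identifiers matched). Counts were tested in R 4.3.3 with edgeR 4.0.16: filterByExpr by group, TMM scaling, robust quasi-likelihood F test (two-sided), and Benjamini-Hochberg adjustment over 16504 genes at 0.05. Log2 fold changes put AAV-Adipsin over AAV-GFP, and their SE comes from the F statistic. Scores and within-style differences used log2 CPM with a prior count of 2, and TPM used the summed exon length. The test was tried on simulated data. Alternatives were other scalings and filters, DESeq2 1.42.0, limma-voom (limma 3.58.1), the replicate block, the description style, other lengths and the removal of libraries.

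The members, the lists of pathway partners and cell type markers, and the tests were chosen with earlier results of these data known. Named genes are all members, the 2 genes of smallest p in each list described, and fixed partners such as Ldhb and Mafa; Chga, Chgb, Cd3e and Amy2a5 were added after their values were seen. Some genes of these lists are not reported here.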

Additional observations from a re-analysis of the deposited data

Results flagged for a closer look

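In the 4 AAV-GFP libraries, 7 members had 1 library far from the other 3 by Dixon's criterion, which 8.16% of genes tested met in these libraries and chance alone meets in about 1 in 20 groups. In 5 of them the distant library was AAV-GFP 4 and the highest, as for 3.11% of genes tested. Igfbp4 stood at 12.3 CPM there against 3.46 to 3.58 CPM in the others, Cox5a at 48.3 CPM against 33.5 to 34.2 CPM, and Cd302 at 3.59 CPM against 0.534 to 0.806 CPM. Ly6a stood at 29.6 CPM against 2.34 to 5.40 CPM, and Arhgdib at 10.04 CPM against 4.16 to 5.12 CPM. Zyx stood apart in AAV-GFP 3, at 55.0 CPM against 27.8 to 31.5 CPM in the others. Ldha stood apart in AAV-GFP 2, where it was lowest, at 13.6 CPM against 35.2 to 39.0 CPM. The 3 AAV-Adipsin libraries were too few for this criterion.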

How the results depend on the processing

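No member passed the threshold under any of the 17 alternatives tried, 1 of which left Itih5 untested. The smallest adjusted p was 0.646, with the replicate block, and the members at an unadjusted p under 0.05 numbered 0 to 5. The sign of the log2 fold change stayed above 0 throughout for Hk1, Hk2, Oat, Pdgfra, Itih5, Smad3, Maf and Tgm2 and turned in at least 1 setting for the other 22. Its size did not hold for those 8: without 1 library at a time it ran from 0.079 to 0.40 for Hk1, 0.038 to 0.67 for Hk2, 0.11 to 0.55 for Oat, 0.67 to 2.33 for Pdgfra, 0.14 to 0.64 for Itih5, 0.15 to 0.75 for Smad3, 0.10 to 0.67 for Maf and 0.033 to 0.84 for Tgm2. For the 22 the ranges were Ldha from -0.28 to 0.64, Slc16a1 from -0.11 to 0.64, Acot7 from -0.23 to 0.37, Cat from -0.11 to 0.17, Tst from -0.40 to 0.13, Cox5a from -0.058 to 0.17, C1qbp from -0.14 to 0.022, Pam from -0.044 to 0.065, Cxcl12 from -0.39 to 0.78, Igfbp4 from -0.20 to 0.74, Ly6a from -0.30 to 1.47, Cd302 from -0.55 to 1.23, Rest from -0.19 to 0.50, Yap1 from -0.34 to 0.32, Nfib from -0.24 to 0.50, Lmo4 from -0.26 to 0.062, Zfp36l1 from -0.25 to 0.44, Mylk from -0.23 to 0.62, Zyx from -0.49 to 0.11, Arhgdib from -0.022 to 0.57, Dapk2 from -0.10 to 0.14 and Ndrg2 from -0.27 to 0.082. The cause of these turns was not tested. Over the same settings the count of members whose groups did not overlap ran from 0 to 2, where AAV-Adipsin was higher without overlap for 1.81% to 5.47% and lower for 2.42% to 7.97% of genes tested, and the median from -0.12, without AAV-Adipsin 2, to 0.49, without AAV-GFP 4. The count of members without overlap was 3 without replicate 1 of both groups, the libraries with a treatment name as description, where 9.07% of genes tested were higher and 9.59% lower without overlap. It was 4 without both AAV-GFP 4 and AAV-Adipsin 2, a setting chosen after seeing the data, where 6.18% were higher and 5.73% lower without overlap. In it 18 members were above 0, against 46.3% of genes tested, with a median of 0.091. In that setting Ldha (-0.23), Acot7 (-0.11), Cat (-0.070), Cxcl12 (-0.26), Yap1 (-0.23) and Zfp36l1 (-0.18) turned below 0. Limma-voom put Yap1 at -0.0018, and without replicate 1 of both groups Mylk was at -0.018 and Dapk2 at 0.077.

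Deviations from the group means correlated at 0.661 for replicate number 1, the libraries described by a treatment name. They correlated at -0.0113 for number 2 and 0.00706 for number 3. Between libraries of different numbers the correlations ran from -0.512 to 0.308. Numbers 2 and 3 thus did not pair the mice by this measure, while the libraries of number 1 resembled each other. Why they did was not tested. With the replicate block over 6 libraries, which leaves out AAV-GFP 4, 28 members were above 0, the median was 0.41 and 5 members had an unadjusted p under 0.05, against 6.62% of genes tested, while 4 did without AAV-GFP 4 and no block, against 3.49%. Tst (0.093), C1qbp (0.020), Lmo4 (0.080) and Ndrg2 (0.087) were above 0 with the replicate block. The block changed no call. With length taken from the longest transcript, 20 members lay below the median level, against 21. Depth limits Pdgfra most, which had 5 and 6 counts in its lowest libraries.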
